A study of Sus scrofa with 20 samples.

Results

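The mRNAs of the subunits of oxidative phosphorylation were examined in the adrenal gland of 10 high-reactive (HR) and 10 low-reactive (LR) pigs, all of the breed German Landrace. The genes were chosen by symbol, as NDUFA, NDUFB, NDUFC, NDUFS or NDUFV with a number, SDHA to SDHD, UQCR, COX4 to COX8, or ATP5 genes, and 53 of the 13755 named genes of the array matched. Of these, 51 encode subunits, namely 24 of complex I, 3 of complex II, 2 of complex III, 8 of complex IV and 14 of complex V. ATP5S and ATP5SL, whose products are not structural subunits, matched the symbols and were set apart. HR and LR animals were the extremes of the backtest, which records how a piglet struggles when held on its back, and carried contrasting haplotypes at a coping behavior QTL. The animals were adult according to the labels, no treatment is named, and the sources used here state neither litter nor sex nor batch. Each animal had 1 Affymetrix Porcine Snowball array, a group value rests on 10 animals, and all values are log2 levels of a probe set. Differences in level between genes were not read as differences in the amount of mRNA, because probe sets differ in brightness.

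Oxidative phosphorylation is carried out in the inner mitochondrial membrane. Complexes I and II pass electrons from NADH and succinate to ubiquinone, complex III hands them to cytochrome c, complex IV reduces oxygen, and complex V uses the resulting proton gradient to make ATP. In the adrenal cortex the mitochondria also house the first and last steps of steroid hormone synthesis, and in the chromaffin cells of the medulla inherited loss of succinate dehydrogenase subunits is a known cause of tumors. The nuclear genes were measured here, and the subunits encoded by mitochondrial DNA had no named probe set among the genes looked for.

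The tissue label was borne out by the levels of both compartments. CYP17A1, the 17-alpha-hydroxylase of cortisol synthesis, averaged 13.6, STAR, which delivers cholesterol to the mitochondrion, averaged 13.4, and the chromaffin granule protein CHGB averaged 12.2. Defining markers of other cells were also detected, with COL1A2 of the fibroblasts of the capsule at 10.8 and HBB of red blood cells at 9.03. The array of animal HR2835 stood apart from the others. Its mean correlation with the other arrays was 0.938, while those of the other 19 lay between 0.977 and 0.983, and so the group comparisons below were also made without it. In RNA of whole glands, fewer cells of a type and less RNA per cell cannot be told apart.

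Most subunits were expressed well above the middle of the array. Of the 53 genes, 50 had a mean level above 4.78, the median over all probe sets, beside 10235 of all 13755 named genes. The 3 that did not were ATP5O, NDUFA4 and ATP5H. These 3 are probe sets of low signal and say little about their genes, and every other subunit count includes them unless stated.

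Between HR and LR, 0 of the 51 subunits passed an adjusted p of 0.05 in limma when the p-values of all 47722 probe sets were adjusted together (Benjamini-Hochberg). The background was the same, with 0% of all probe sets called. At an unadjusted p under 0.05 the count was 0 of 51 subunits, beside 3.65% of all probe sets. The mean was higher in HR for 22 of 51 subunits (43.1%), beside 46.4% of all named genes and 31.3% of the brightest 25% of the named genes. The median difference, HR minus LR, was -0.04 on the log2 scale, and the differences ran from -0.17 for SDHD to 0.18 for NDUFV3.

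Without HR2835 the subunits were mostly higher in HR, yet none was called. The mean was higher in HR for 37 of 51 subunits (72.5%), beside 53.2% of all named genes and 51.7% of the brightest 25%, and the median difference was 0.04. Again 0 subunits and 0% of all probe sets passed the adjusted threshold. At an unadjusted p under 0.05 there were 5 of 51 subunits (9.80%), beside 7.89% of all probe sets, a share near the background. All 5 belonged to complex I, and they were NDUFB8, NDUFB9, NDUFA10, NDUFB11 and NDUFB4, of which NDUFA10 and NDUFB11 are named here after their values were seen. The level of high-GC background probes, which match no transcript, was higher on average in HR with and without HR2835. It averaged 5.85 ± 0.08 (SD, n = 9) in HR without HR2835, 5.79 ± 0.21 (SD, n = 10) in HR with all animals and 5.73 ± 0.14 (SD, n = 10) in LR. The part of this background in the result was not tested. Markers of fibroblasts were lower in HR in 6 of 6 genes, with a median difference of -0.26 without HR2835, and 3 of 3 red blood cell markers were higher, with a median of 0.35. The fibroblast score per animal, built like the scores described further on, ran from -0.41 to 0.17 in the 9 HR animals and from -0.44 to 0.64 in LR, the red blood cell score from -0.19 to 0.76 and from -0.63 to 0.13. Of these markers SLC4A1 of red blood cells averaged 4.35, under the median level of all probe sets, and the others lay above it. The part of the fibroblast and red blood cell markers in the subunit differences was not tested either. All marker lists, those of fibroblasts and red blood cells included, had 0 calls with and without HR2835. In other lists the median differences without HR2835 were 0.04 for chromaffin cells, 0.09 for leukocytes and 0.03 for endothelium. They were -0.07 for adipocytes, -0.01 for smooth muscle and 0.15 for skeletal muscle. With all animals these were 0.05, 0.19, -0.06, -0.10, -0.07 and 0.05 in the same order, and 0 of 5 cortex markers were higher in HR, or 2 of 5 without HR2835.

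**Figure D1:**
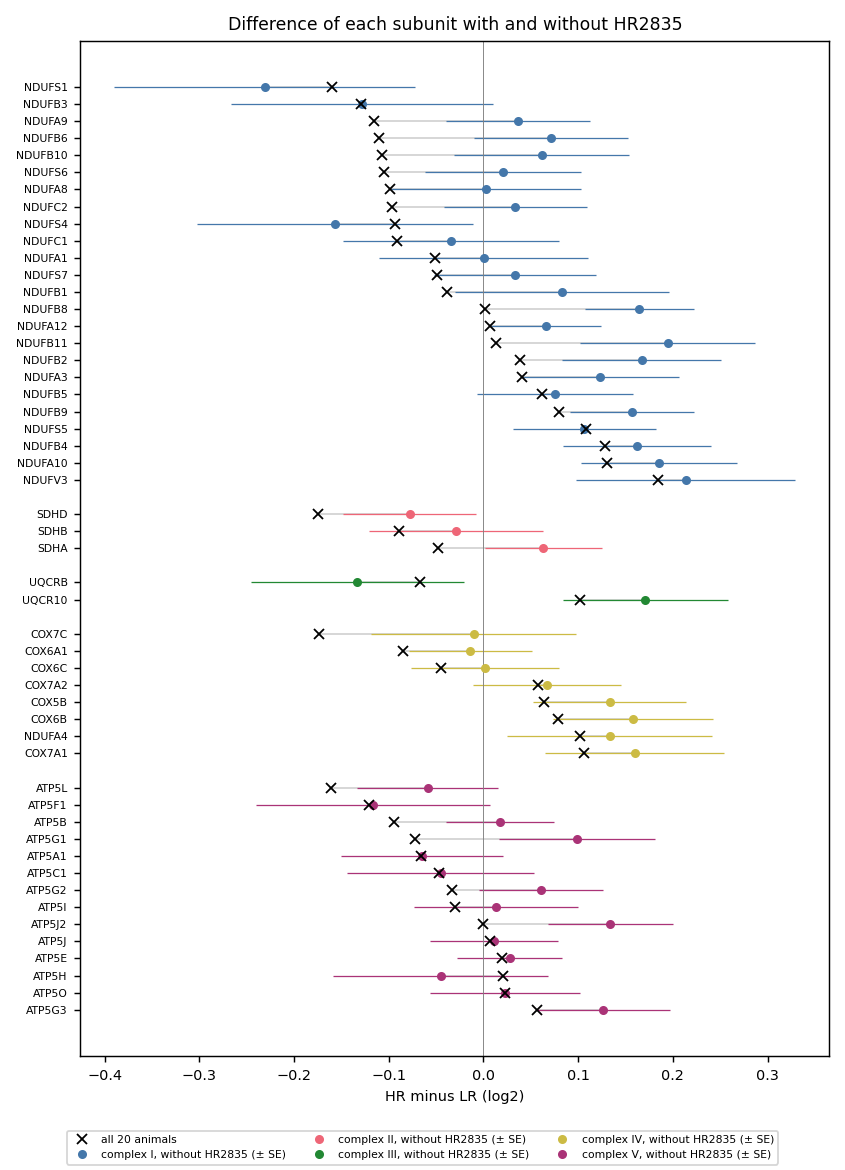
Difference HR minus LR on the log2 scale (x axis) of each of the 51 subunits (y axis, grouped by complex). Crosses use all 20 animals, and dots with bars give the difference and its SE without HR2835. Most dots lie to the right of their crosses, and 37 dots against 22 crosses lie above 0.

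In complex I, NADH dehydrogenase, the differences of NDUFB8, NDUFB9 and NDUFB11, small accessory subunits of the membrane arm, grew when HR2835 was left out. NDUFB8 was lowest at 8.97, with a median of 10.61 and a highest value of 10.69 in HR, and ranged from 10.32 over a median of 10.41 to 10.56 in LR. Only HR2835 fell below the LR range. The other 9 HR animals ran from 10.46 over a median of 10.61 to 10.69, so that most lay above the LR range and the rest in its upper part. The difference of NDUFB8 was 0.00 ± 0.16 (SE) with all animals and 0.16 ± 0.06 (1.12-fold) without HR2835, at an unadjusted p of 0.0092 and an adjusted p of 0.606 in limma. NDUFB9 followed the same pattern, with 8.70, 9.45 and 9.56 as lowest, median and highest value in HR and 9.06, 9.35 and 9.52 in LR. Its difference was 0.08 ± 0.09 (SE) with and 0.16 ± 0.07 (SE) without HR2835, where limma gave an adjusted p of 0.616. NDUFB11 was 6.89, 8.70 and 8.98 in HR and 8.19, 8.51 and 8.84 in LR, and its difference went from 0.01 to 0.19. In each of these the HR and LR ranges overlapped even without HR2835. A dimmer probe set of NDUFB8, at a level of 7.15, differed by 0.13 with all animals already, and by 0.17 without HR2835.

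At their brightest probe sets, the differences of NDUFV3, NDUFB4 and NDUFS5 depended little on HR2835. NDUFV3, an accessory subunit of the NADH-binding module, had 9.07, 9.29 and 9.78 as lowest, median and highest level in HR and 8.67, 9.21 and 9.54 in LR. Its difference of 0.18 ± 0.12 (SE) was the highest of the 51 and rose to 0.21 without HR2835, with adjusted p-values of 0.99997 and 0.658 in limma. NDUFB4 of the membrane arm reached 8.44, 8.91 and 9.005 in HR against 8.51, 8.67 and 8.95 in LR, with a difference of 0.13 ± 0.08 (SE). NDUFS5, which faces the intermembrane space, was 7.59, 7.85 and 8.01 in HR and 7.61, 7.68 and 7.98 in LR, and its difference of 0.11 was the same without HR2835. The groups overlapped for all 3 genes. A dimmer probe set of NDUFV3, at a level of 8.59, differed by 0.05, or by 0.10 without HR2835. A dimmer one of NDUFB4, at 6.88, differed by 0.03, or by 0.09 without HR2835. NDUFS1, the largest core subunit and carrier of iron-sulfur clusters, went the other way with -0.16, and with -0.23 ± 0.16 (SE) without HR2835. NDUFC2, another bright membrane arm subunit, and NDUFS7, a core subunit with an iron-sulfur cluster, changed sign, from -0.10 to 0.03 and from -0.05 to 0.03, and so did NDUFB6 of the membrane arm, from -0.11 to 0.07. Over the 24 subunits the median difference was -0.04 with 11 higher in HR, and 0.07 with 20 higher in HR when HR2835 was left out.

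Complex II, succinate dehydrogenase, was lower in HR for all 3 measured subunits, and none passed the test. SDHD, a membrane anchor, was 7.16, 8.08 and 8.35 as lowest, median and highest value in HR and 8.02, 8.22 and 8.34 in LR. Its difference of -0.17 ± 0.11 (SE) shrank to -0.08 ± 0.07 (SE) without HR2835. SDHB, the iron-sulfur subunit, was 9.73, 10.30 and 10.73 in HR and 10.15, 10.35 and 10.52 in LR. The HR animals thus enclosed the LR range on both sides. SDHA, the flavoprotein, was 10.01, 11.10 and 11.36 in HR against 10.90, 11.05 and 11.17 in LR, and its difference turned from -0.05 to 0.06. Its 4 probe sets all changed sign in this way, while 1 probe set of SDHB, at a level of 6.75, was higher in HR and its others were lower.

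The 2 subunits of complex III, ubiquinol-cytochrome c reductase, went in opposite directions. UQCR10, a small subunit, had 8.73, 9.43 and 9.57 as lowest, median and highest level in HR and 8.87, 9.21 and 9.63 in LR, with a difference of 0.10 ± 0.11 (SE) and of 0.17 ± 0.09 without HR2835. UQCRB, which takes part in ubiquinone binding, was 8.11, 8.50 and 9.17 in HR and 8.34, 8.61 and 8.98 in LR, with differences of -0.07 and, without HR2835, -0.13 ± 0.11 (SE). The highest of all 20 animals for UQCRB and the lowest for UQCR10 was the same one, HR2835. The groups overlapped for both genes.

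Complex IV, cytochrome c oxidase, showed 5 of 8 subunits higher in HR, or 6 of 8 without HR2835, with medians of 0.06 and 0.10. Among the isoforms looked for, COX7A1, the heart and skeletal muscle form, and its ubiquitous counterpart COX7A2 were both measured. COX7A1 was 8.41, 8.95 and 9.27 as lowest, median and highest value in HR and 8.44, 8.79 and 9.15 in LR, and its difference was 0.11 ± 0.10 (SE), or 0.16 ± 0.09 without HR2835. COX7A2 was 9.32, 9.55 and 9.75 in HR and 9.25, 9.50 and 9.75 in LR, a difference of 0.06 ± 0.08 (SE). Neither isoform separated the groups. COX6A1, the ubiquitous form of subunit VIa, was 10.96, 11.69 and 11.77 in HR and 11.50, 11.72 and 11.82 in LR. COX6B, which bridges the monomers of the dimeric enzyme, was 6.96, 7.77 and 7.94 in HR and 7.31, 7.58 and 7.89 in LR, with a difference of 0.08 that became 0.16 ± 0.08 (SE) without HR2835. COX7C, a small subunit, spread from 6.87 over a median of 8.43 to 8.89 in HR and from 8.09 over 8.55 to 8.84 in LR. Its difference of -0.17 ± 0.18 (SE) shrank to -0.01 without HR2835. The low probe set of NDUFA4, a subunit first assigned to complex I, differed by 0.10.

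Complex V, ATP synthase, had 5 of 14 subunits higher in HR, or 9 of 14 without HR2835, with medians of -0.03 and 0.02. ATP5B, the catalytic beta subunit, was 11.33, 12.41 and 12.58 as lowest, median and highest value in HR and 12.32, 12.45 and 12.54 in LR. Its difference was -0.09 ± 0.12 (SE), or 0.02 ± 0.06 without HR2835. ATP5G1, ATP5G2 and ATP5G3 encode precursors of the same c subunit of the rotor ring. ATP5G1 was 8.42, 10.14 and 10.40 in HR and 9.83, 10.005 and 10.26 in LR, and its difference turned from -0.07 to 0.10 without HR2835. ATP5G2 turned likewise, from -0.03 to 0.06, and ATP5G3 went from 0.06 to 0.13. ATP5J2, a membrane subunit, was 7.19, 8.53 and 8.70 in HR and 8.17, 8.40 and 8.61 in LR, and moved from -0.00 to 0.13 ± 0.07 (SE), with an adjusted p of 0.637 in limma. Several subunits of the central and peripheral stalks hardly moved with HR2835. ATP5F1, of the peripheral stalk, was 9.23, 9.72 and 10.08 in HR and 9.42, 9.76 and 10.18 in LR, with differences of -0.12 with and without the animal. ATP5C1, the gamma shaft, had -0.05 and -0.05, and ATP5J, the stalk subunit F6, had 0.01 and 0.01. ATP5L, a membrane subunit, went from -0.16 ± 0.12 (SE) to -0.06. Of the genes set apart, ATP5SL was 7.80 in HR2835 beside 9.51 to 10.34 in the other animals, and its difference turned from -0.12 to 0.09 without that animal. ATP5S, a coupling factor, differed by -0.23 ± 0.12 (SE), with an adjusted p of 0.99997 in limma and the smallest unadjusted p of the 53 genes, 0.072, and by -0.24 without HR2835.

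For NDUFS7, SDHB, ATP5J, ATP5G2, ATP5C1 and ATP5E the probe sets above the median level of all probe sets differed in sign with all animals. ATP5J had its bright probe set at 11.31 with a difference of 0.01 and others at 7.67 and 7.78 with -0.15 and -0.06. In HR2835 these probe sets deviated from the median of the other animals by 0.00, -1.84 and -0.61, and without it all 3 differences were positive, at 0.01, 0.03 and 0.00. The probe sets of ATP5G2 and NDUFS7 were likewise all positive without HR2835. ATP5E, the epsilon subunit, kept its conflict, with 0.02 at its bright probe set and -0.16 at another one, where HR2835 stood 1.20 above the median of the other animals, and 0.03 and -0.31 without that animal. SDHB and ATP5C1 also kept opposite signs.

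The levels in HR2835 were then set beside the other 19 animals. The animal lay below all others for 33 of 51 subunits (64.7%), above all others for 2, UQCRB and ATP5H, and within their range for 16. Its median deviation from the median of the others was -0.64, beside -0.20 over all named genes and -0.49 over the 2044 named genes of similar level, of which 55.6% lay below all other animals. Of the 25 subunits in the same range of levels, 76% did so. Among the related lists described further on, the median deviation was -0.76 for carriers, lower than for the subunits. It was -0.44 for assembly factors and -0.43 for tricarboxylic acid cycle and pyruvate dehydrogenase genes. Regulators of mitochondrial genes had -0.03, and subunits or partners outside the symbol rule had -0.03. The animal's level of high-GC background probes, 5.24, was below those of the other arrays, which ran from 5.48 to 6.001, while its level of low-GC background probes was just under 1.31, the lowest of the others. Collagen and other capsule markers were also low, with a median deviation of -1.78, and so were markers of smooth muscle (-1.03), endothelium (-0.88), skeletal muscle (-0.81) and adipocytes (-0.53). Cortex markers deviated by -0.32, leukocyte markers by -0.31, red blood cell markers by -0.21 and chromaffin markers by 0.10. All of these are medians of lists, and some members went the other way. In HR2835 MYH11 of smooth muscle was 6.35 and PTPRC of leukocytes 5.53, above the highest of the others, 6.14 and 4.87. KDR of endothelium was 8.84 beside a median of 8.59 in the others. Among chromaffin markers SYT1 was 8.43, above 7.56, the highest of the others, and PNMT 9.90, under their median of 10.54. Whether these values bear on the subunits was not tested.

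The deviation was unequal among and within complexes. The median was -0.74 for complex I, where 16 of 24 subunits lay below all other animals, -1.03 for complex II, with 3 of 3, -0.57 for complex IV, with 6 of 8, and -0.26 for complex V, with 7 of 14. In complex III UQCR10 deviated by -0.66 and UQCRB by 0.59. In complex I the deviations ran from -1.78 for NDUFB6, a membrane arm subunit with a level of 6.72 beside 8.22 to 8.82 in the others, to 0.69 for NDUFS1. In complex V ATP5G1 deviated by -1.66 and ATP5B by -1.12, whereas ATP5A1, the alpha partner of ATP5B in the catalytic head, deviated by -0.08. COX7C with -1.63 was the farthest of complex IV.

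**Figure D2:**
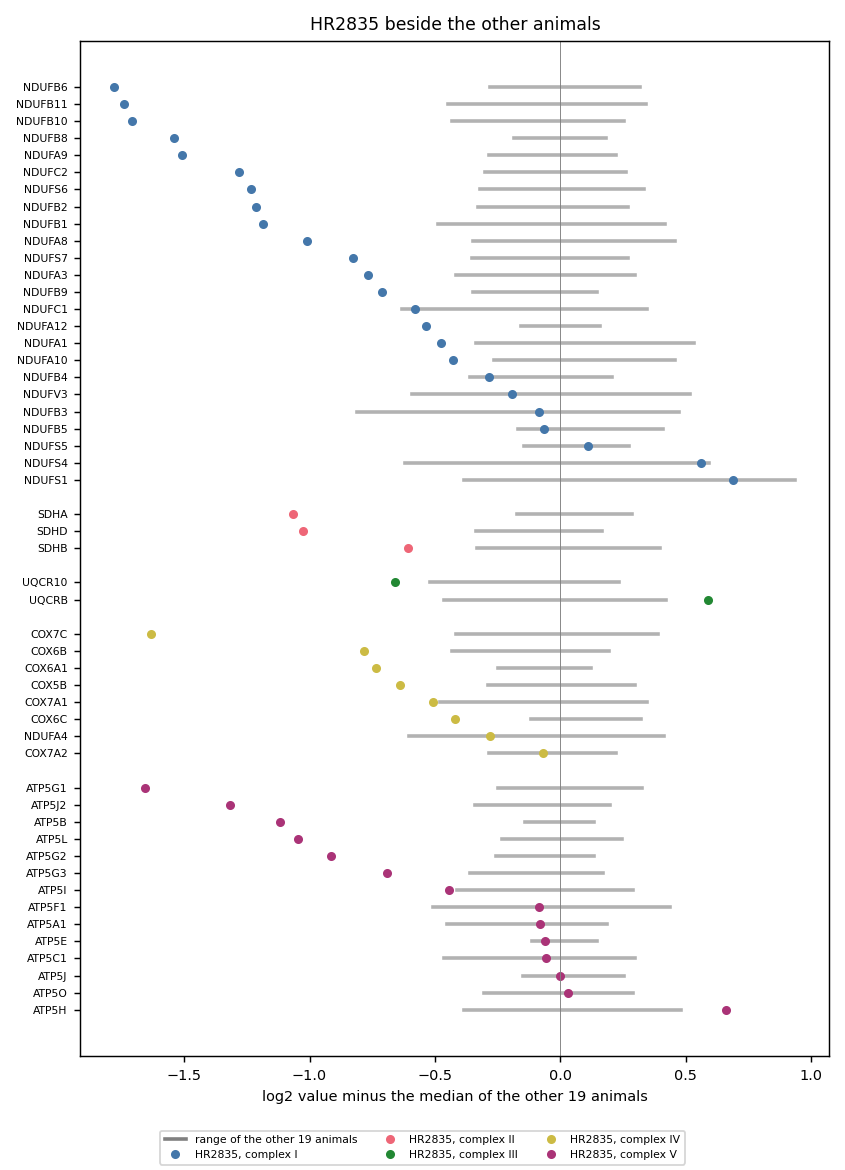
Level of animal HR2835 minus the median of the other 19 animals on the log2 scale (x axis) for the 51 subunits (y axis, grouped by complex). Gray bars are the range of the other 19 animals. Dots outside the bars number 33 on the low side and 2 on the high side.

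A score per animal, the mean over the subunits of a complex of the value minus the gene's median over all animals, was then compared. In complex I HR2835 scored -0.73, the other HR animals -0.21 to 0.20 and the LR animals -0.13 to 0.18. In complex II the scores were -0.90, -0.19 to 0.16 and -0.10 to 0.11. In complexes IV and V HR2835 scored -0.62 and -0.48, below all other animals. Apart from HR2835 the groups overlapped in all complexes, and among the other HR animals HR2965 was lowest in all 5 complexes.

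**Figure D3:**
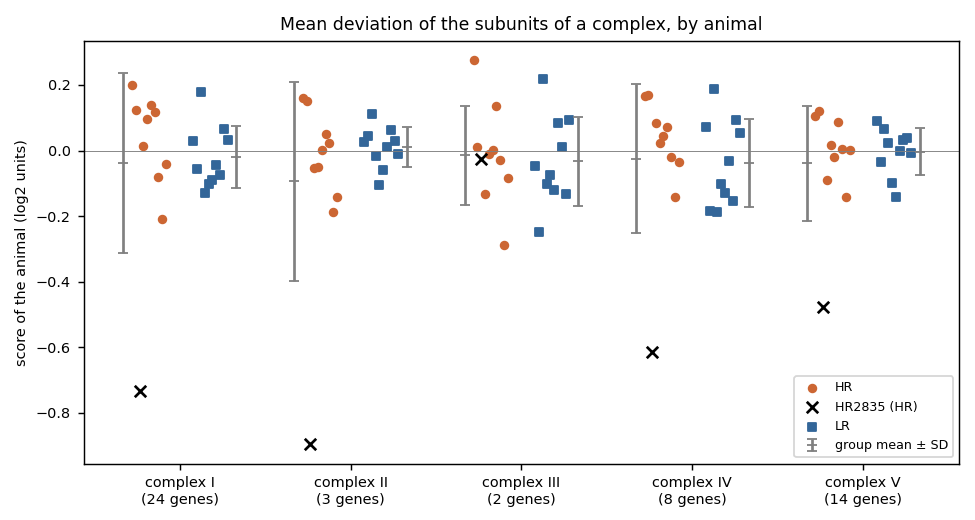
Score of each animal (y axis, log2 units) for each complex (x axis), with HR as circles, LR as squares, HR2835 as a cross and gray bars for the mean ± SD of all 10 animals of a group. HR2835 lies below the other 19 animals in complexes I, II, IV and V and among them in complex III.

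Co-variation between animals was examined next among the 48 subunits above the median level, with Pearson's r over the animals of a group. Over all pairs the median r was positive, with like medians within and between complexes, but not in every complex. In LR the median r was 0.38 over the 367 pairs within complexes and 0.34 over the 761 pairs between complexes, beside 0.00 over all pairs of named genes above the median level. In HR it was 0.63 within and 0.67 between, beside 0.08, and without HR2835 it was 0.46 and 0.43, beside 0.01. Among the brightest 25% of the named genes the median over pairs was 0.01 in LR, 0.23 in HR and 0.05 in HR without HR2835. Of the 367 pairs 276 were of complex I, with a median r of 0.38 in LR and 0.47 in HR without HR2835. Complex V had 0.36 and 0.47 over 66 pairs, and complex IV 0.53 and 0.21 over 21 pairs. The 3 pairs of complex II had medians of -0.12 and -0.21, and the single pair of complex III had -0.23 and 0.11. Differences between complexes were not tested. The spread over pairs was wide, with an SD of 0.41 within complexes in LR. These correlations share animals and arrays and are a description.

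The pairs of the brightest subunit of each complex, NDUFB8, SDHA, UQCR10, COX6A1 and ATP5B, gave 30 relations in HR, LR and HR without HR2835. All were positive. In HR the r values ran from 0.89 to 0.98, but they rested on HR2835, since without it they ran from 0.03 to 0.75. In HR 3 of 10 passed an adjusted permutation p of 0.05 by Pearson's r and 1 by Spearman's rho, and without HR2835 0 of 10 passed by either measure. There 1 of 10 had an unadjusted exact permutation p under 0.05 by either measure. SDHA and ATP5B gave r = 0.75 and rho = 0.83 in the 9 HR animals, with adjusted exact permutation p-values of 0.054 and 0.083, and r = 0.68 when the 2 animals with the most extreme SDHA levels were left out. In LR the same pair had r = 0.25 and rho = 0.35, with adjusted permutation p-values of 0.531 and 0.480. SDHA and COX6A1 correlated in LR, with r = 0.76 and rho = 0.88 (permutation test, adjusted p = 0.051 and 0.025) and r = 0.82 without the 2 farthest animals. In HR without HR2835 r was 0.03, but 0.76 when the 2 animals farthest in SDHA were left out as well. The difference between the groups was not tested.

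Pairs of partners within a complex, chosen after the correlations had been seen, are given as a description with no test, first in the 10 LR animals and then in the 9 HR animals without HR2835. NDUFS1 and NDUFS4, an accessory subunit linked to Leigh syndrome in humans, had r = 0.87 and 0.96 (rho = 0.89 and 0.95), and r = 0.65 and 0.89 with the 2 animals of most extreme NDUFS1 level left out. ATP5A1 and ATP5C1, alpha and gamma of the catalytic part, had r = 0.83 and 0.92 (rho = 0.92 and 0.90), and 0.67 and 0.75 with the 2 animals of most extreme ATP5A1 level left out. ATP5A1 and ATP5B, which alternate in the catalytic head, had r = 0.64 and -0.07 (rho = 0.67 and -0.02), and 0.27 and 0.29 with 2 animals left out in the same way. SDHA and SDHB had r = -0.26 and -0.21 (rho = -0.30 and 0.03), and -0.33 and 0.02 with the 2 animals of most extreme SDHA level left out. Differences among these pairs were not tested.

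A tree of the 48 subunits over the LR animals (average linkage on 1 minus r) was cut into 2 sets that ran across the complexes. The smaller set held 13 subunits, namely ATP5A1, ATP5C1, ATP5F1, ATP5J and ATP5L of complex V, NDUFB3, NDUFB6, NDUFC1, NDUFS1 and NDUFS4 of complex I, SDHB and SDHD of complex II and UQCRB of complex III. The larger set held the other 35, with all 7 subunits of complex IV. When each LR animal was left out in turn, between 45 and 48 of the 48 subunits stayed in their set. In the LR animals the median r was 0.54 within either set and 0.00 between them, as the cut itself favors.

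In the 9 HR animals that the cut did not use, the smaller set held together. The larger set had a median r near that of all subunit pairs. The median r was 0.85 within the smaller set, with all 78 pairs positive, 0.45 within the larger set and 0.28 between the sets. Over all pairs of subunits in these animals it was 0.44. All 13 subunits of the smaller set were closer to it, by their median r, than to the larger set, but so were 15 of the 35 subunits of the larger set. A tree made from these 9 animals split off 1 subunit only, so that the sets did not form again. The high-GC background level moved with the sets in LR, where r with it was positive for 34 of 35 subunits of the larger set (median 0.56) and for 0 of 13 of the smaller one (median -0.48). In HR without HR2835 the medians were 0.01 and -0.13. Its part in the sets was not tested.

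**Figure D4:**
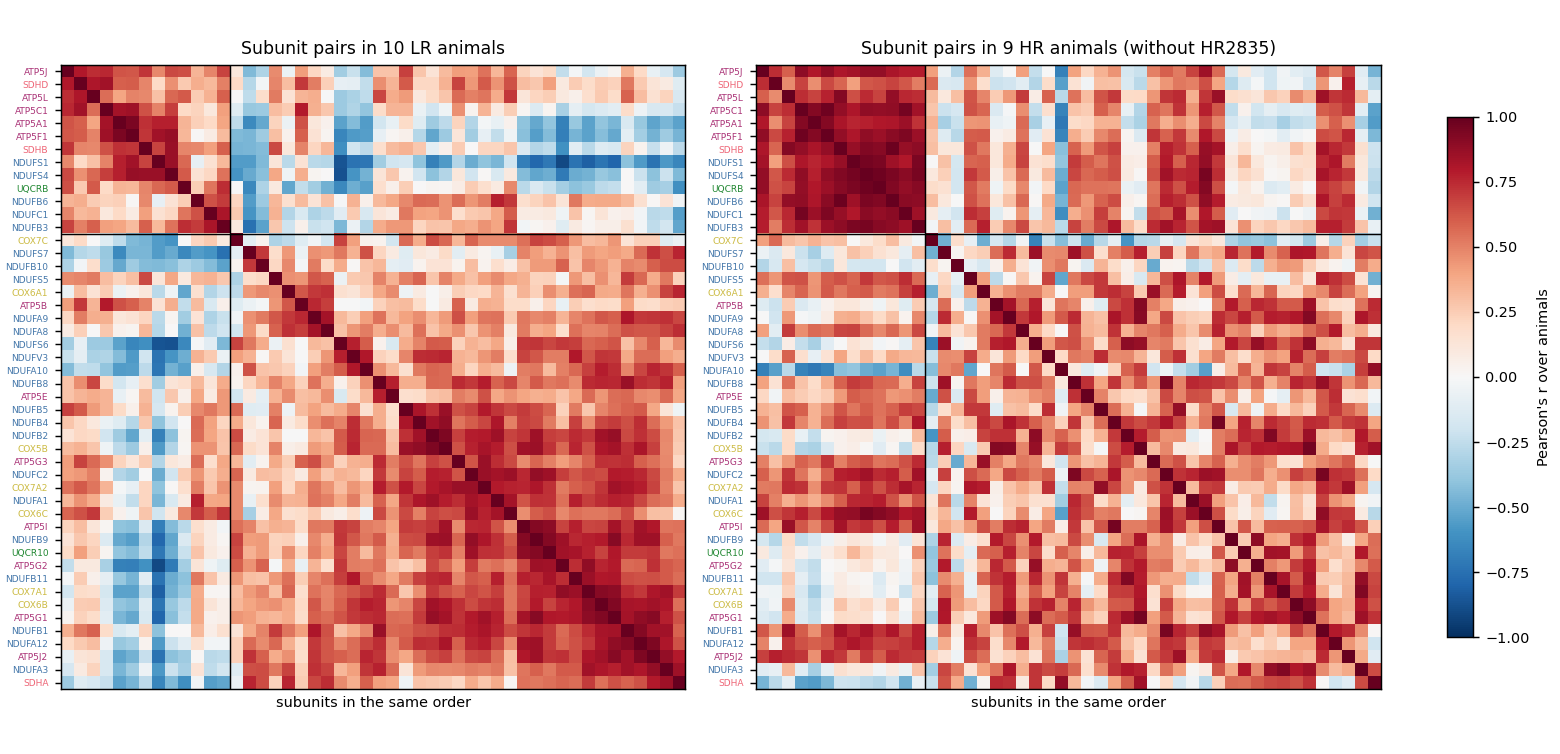
Pearson's r over animals for each pair of the 48 subunits above the median level, in 10 LR animals (left) and in 9 HR animals (right), in the same order from the tree of the LR animals, with gene names colored by complex. Black lines divide the smaller set of 13 from the larger set of 35, and in the block at the top left 98.7% of the 78 pairs are positive in LR and 100% in HR.

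The sets also had different values in HR2835 and in the comparison of the groups. HR2835 lay below all other animals for 29 of 35 subunits of the larger set, with a median deviation of -0.77, and for 4 of 13 of the smaller set, with a median of -0.08. With all animals 18 of 35 subunits of the larger set had the higher mean in HR, with a median difference of 0.00, and 1 of 13 of the smaller set, with a median of -0.09. Without HR2835, 33 of 35 subunits of the larger set had the higher mean in HR, with a median difference of 0.08, and 2 of 13 of the smaller set, with a median of -0.06. These are descriptions of sets found in the LR animals.

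Other genes of mitochondrial energy metabolism gave 0 calls among another 53 genes, with and without HR2835, beside 0% of all probe sets. For the counts by direction, 46.4% of all named genes were higher in HR, or 53.2% without HR2835. Of 14 tricarboxylic acid cycle and pyruvate dehydrogenase genes 1 was higher in HR, or 5 without HR2835. The bright ones were CS, citrate synthase, with a difference of -0.11, and MDH2, malate dehydrogenase, with -0.05, and these became -0.02 and 0.02 without HR2835. Of 16 assembly factors 6 were higher in HR, or 9 without HR2835, and 3 then had an unadjusted p under 0.05, as did 1 regulator, beside 7.89% of all probe sets. COX17, a copper chaperone for complex IV, differed by 0.04 and NDUFAF3, a complex I assembly factor, by -0.04, or by 0.09 and 0.12 without HR2835. Of 9 carriers 3 were higher in HR with or without HR2835, with SLC25A3, the phosphate carrier, at -0.04 and VDAC2, a channel of the outer membrane, at -0.20, or at -0.04 and -0.07 without HR2835. Of 11 regulators of mitochondrial genes 5 were higher in HR, or 4 without HR2835. PPRC1, a coactivator, differed by -0.20 and TFAM, which packs mitochondrial DNA, by 0.00, or by -0.26 and -0.13 without HR2835, in which TFAM stood at 8.87 beside 7.11 to 8.02 in the other animals. Of 3 subunits or partners outside the symbol rule, ATPIF1, the inhibitor of ATP synthase, differed by 0.13 and NDUFAB1, the acyl carrier subunit of complex I, by 0.04, or by 0.14 and 0.12 without HR2835.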

How the data were processed

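Total RNA of the adrenal gland of 10 HR and 10 LR pigs was hybridized to Affymetrix Porcine Snowball arrays, 1 per animal. Per the labels and methods, the authors scanned with GCOS 1.1.1, normalized by RMA in Expression Console and deposited log2 values, which shrink differences of dim probe sets and were used as they stand. The authors' detection filter was not repeated. After 123 controls were left out of 47845 probe sets, 47722 were tested; 26426 carried 1 symbol in the array's annotation, 0 several and 21296 none. A gene with several probe sets is shown by its brightest one.

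The groups were tested with limma 3.58.1 in R 4.3.3 without covariates. P-values of all probe sets were adjusted together (Benjamini-Hochberg, threshold 0.05). Correlations used 100000 resamples, or exact enumeration with 9 animals, two-sided. Steps were tested on simulated data. Alternatives were leaving out each animal, quantile normalization, median centring, array weights, a trended and robust variance, brighter probe sets, the mean of a gene's probe sets, Spearman's rho and pooled correlations. Members and lists were chosen with earlier results of these data known. Genes named are, per complex, the brightest 2, those with the smallest p (3 with all animals, 2 without HR2835) and the farthest in HR2835, plus isoforms and genes whose probe sets differ in sign. In the other lists up to 2 genes are named. Marker lists covered cortex, chromaffin cells, capsule and fibroblast, red blood cells, leukocytes, endothelium, adipocytes, smooth and skeletal muscle. Precision is limited by the number of arrays. The limma p-values weigh a difference against the spread between animals, moderated over all probe sets.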

Additional observations from a re-analysis of the deposited data

Results flagged for a closer look

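A sample far from its group was looked for in 72 groups of 10 animals, over the 29 named subunits, the scores of the complexes and the array measures. Chance marks about 1 in 20 groups that are chosen without regard to their values. Some of these subunits were named for their distance in HR2835 or their small p without it, and the groups share animals. The number of marks therefore cannot be set against that rate. All 23 marks were HR2835 as the lowest HR animal. In complex I these were NDUFB8 at 8.97, NDUFC2 at 8.66, NDUFB9 at 8.70, NDUFB6 at 6.72 and NDUFS7 at 6.31, and the score of the complex at -0.735. In complex II they were SDHA at 10.01 and SDHD at 7.16, with the score at -0.896, and in complex III UQCR10 at 8.73. In complex IV they were COX6A1 at 10.96, COX7C at 6.87 and COX6B at 6.96, with the score at -0.615. In complex V they were ATP5B at 11.33, ATP5G2 at 10.45, ATP5G1 at 8.42, ATP5G3 at 8.63, ATP5J2 at 7.19 and ATP5L at 6.83, with the score at -0.477. For the array as a whole they were the high-GC background level at 5.24 and the mean correlation with the other arrays at 0.938.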

How the results depend on the processing

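No setting called a subunit or any other probe set. The number of subunits higher in HR, 22 with all animals, moved to 37 without HR2835 and to 35 with array weights, and over all animals left out it ran from 18 to 37. With each animal left out the median difference ran from -0.0622 to 0.0363 over all subunits, from -0.0747 to 0.0689 in complex I, from -0.14 to -0.0285 in complex II, from -0.0149 to 0.048 in complex III, from 0.0358 to 0.1 in complex IV and from -0.0523 to 0.0157 in complex V. Pairs of the brightest subunits whose Pearson's r passed an adjusted p of 0.05 numbered 3 in HR, 0 without HR2835 and 0 in LR, and 10 when both groups were pooled after their means were subtracted, a pool that holds HR2835. Without HR2835 the difference changed sign for NDUFC2 (0.0337), NDUFB6 (0.0715), NDUFS7 (0.0332), SDHA (0.0629), ATP5B (0.0177), ATP5G2 (0.0605), ATP5G1 (0.0988) and ATP5J2 (0.134). Quantile normalization changed it for ATP5G2 (0.00573) and ATP5J2 (0.0202), and median centring for NDUFB8 (-0.000381). The mean of all probe sets changed it for COX7A1 (-0.0132), ATP5J (-0.0171), ATP5G2 (0.0327), ATP5C1 (0.0148), ATP5E (-0.0602) and ATP5L (0.072). All other values kept their direction where tested, or moved by less than the spread between animals or pairs. The signal of ATP5H, NDUFA4 and ATP5O, at or under the median level of the array, limits what their values show. The cause was not tested beyond the probe sets and the animal named. No paired analysis was made, because the sources used here give no litter or other pairing of HR with LR animals.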
